A study of Mus musculus with 12 samples.

Results

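Hepatic stellate cells store vitamin A as retinyl esters in the space between hepatocytes and sinusoids. In an injured liver they lose that store, respond to platelet-derived growth factor (PDGF) and become contractile, matrix-secreting myofibroblasts. Genes high in the resting cell are called quiescence markers here, and those of PDGF response, the contractile cytoskeleton and the fibroblast or mural surface are called the other markers. YAP1 is a transcriptional coactivator that works through TEAD DNA-binding proteins. The 10 genes described were the rows of the deposited table named Lrat, Reln and Hgf (quiescence) and Des, Pdgfra, Pdgfrb, Acta2, Tagln, Rgs5 and Thy1 (other markers). All 10 were found among 25676 genes, and all 10 passed the filter on low values. Several are not markers of activation alone: Des and Rgs5 also mark resting stellate or mural cells, Acta2 and Tagln are also expressed in vascular smooth muscle, and Thy1 in portal fibroblasts and T cells.

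Whole liver from 12 C57BL/6 mice aged 3 to 4 months was sequenced, with 1 library a mouse. Of these, 6 were wild type (WT; 3 males, 3 females) and 6 carried a YAP1 knockout made with Foxa3-Cre (KO; 3 males, 3 females). Foxa3 is an endodermal gene, so its promoter is expected to drive Cre in hepatocytes and bile duct cells, whereas stellate cells descend from mesoderm. The labels name no Cre-only or floxed control. Yap1 itself lay between 23.0 and 34.9 TPM (transcript abundance scaled by gene length to a fixed sum) in the WT livers and between 0.994 and 3.11 TPM in the KO livers, as the labels say (exact permutation p = 0.005, two-sided, from 400 arrangements within sex). The residue cannot be assigned to a cell type in bulk tissue. Estimated depth was between 21541295 and 30610498 reads a library.

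The reference level to which the libraries are scaled changed the calls, so each of the 10 markers is given on both scales for genotype. For other genes the deposited-scale value is given, with the rescaled one where the call or sign changed or the size moved by over 1.5 times. TPM is a share of each library, and the 20 most abundant genes took between 33.9% and 36.8% of it in the WT libraries and between 28.3% and 34.8% in the KO libraries. The median gene was 0.35 higher in KO on the log2(TPM + 1) scale, and 6153 genes were called higher against 592 lower. After each library was rescaled by its median ratio to the others (median-of-ratios), the median gene stood at -0.04 and the calls were 2513 higher and 2296 lower. A call is an adjusted p under 0.05 in limma with Benjamini-Hochberg adjustment over all tested genes. All log2 differences below are KO minus WT on the log2(TPM + 1) scale with their standard error (SE), which understates the change of genes near 1 TPM.

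In the deposited TPM, 6 of the 10 markers were higher in KO liver and 0 were lower, beside a background of 50.1% of tested genes higher and 4.82% lower. The 6 were Hgf, Des, Pdgfra, Pdgfrb, Tagln and Thy1. At an unadjusted p under 0.05, 8 passed, with Acta2 higher and Lrat lower in addition, beside 60.6% of genes in either direction. After rescaling, 3 were higher (Hgf, Pdgfra, Pdgfrb) and 2 were lower (Lrat, Rgs5), beside 20.6% and 18.8% of genes, and limma-voom on reads recovered from the TPM gave the same 5 calls, beside 20.4% and 19% of genes. The median difference of the 10 markers was 0.66 in the deposited TPM and 0.33 after rescaling. Only Hgf, Pdgfra and Pdgfrb were called in the same direction on both scales. In bulk tissue, a change in the number of cells of a type and a change in RNA per cell cannot be told apart.

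**Figure D1:**
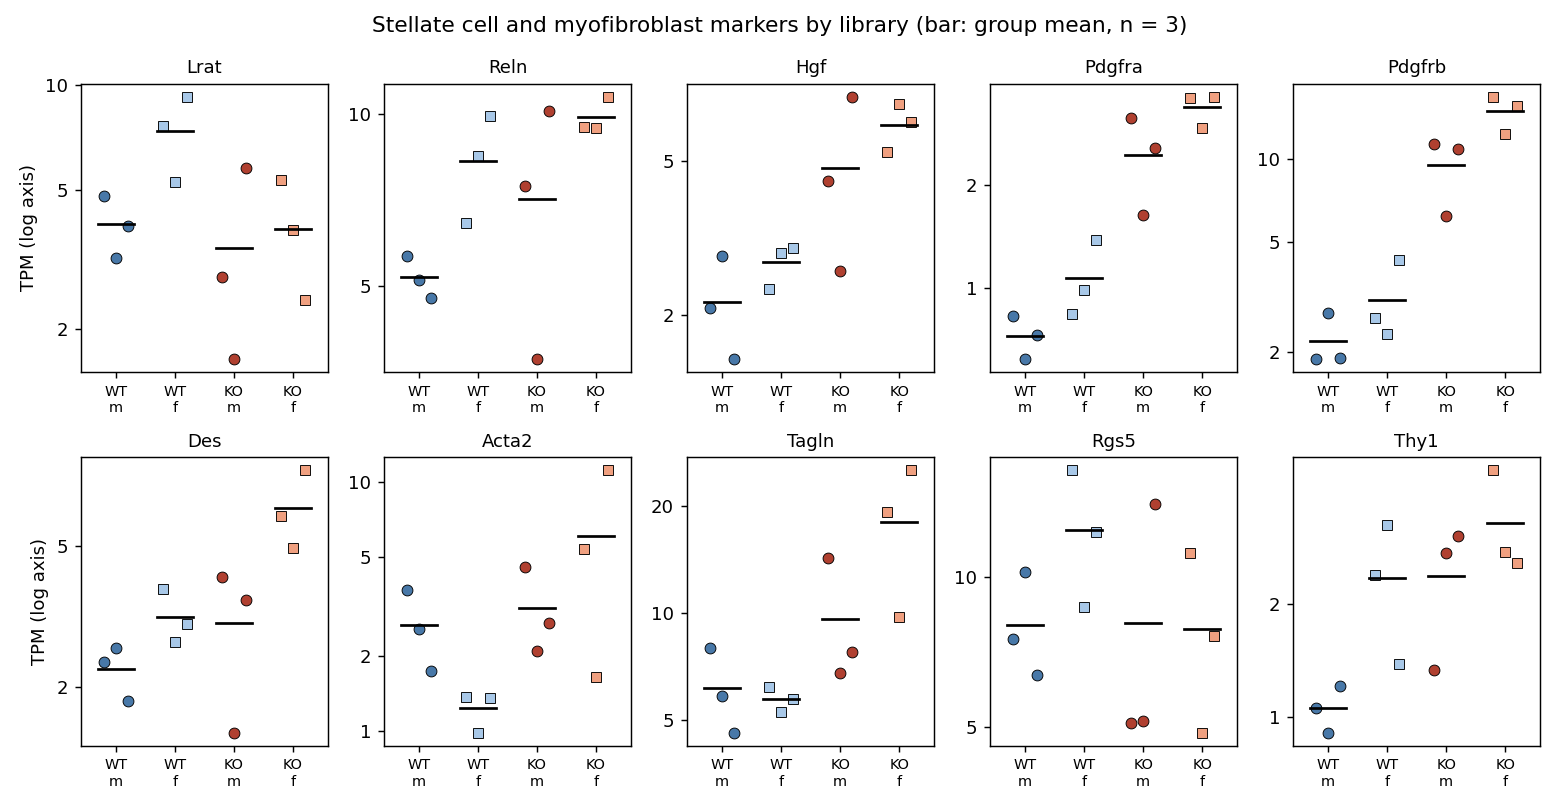
TPM of each of the 10 markers on a log axis in each of the 12 libraries (blue WT, red KO; circles males, squares females; bars are group means of 3 mice). Pdgfra and Pdgfrb are the only panels in which every KO library lies above every WT library, and KO male replicate 2, the middle point of its group, is the lowest KO library in 7 panels.

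**Figure D2:**
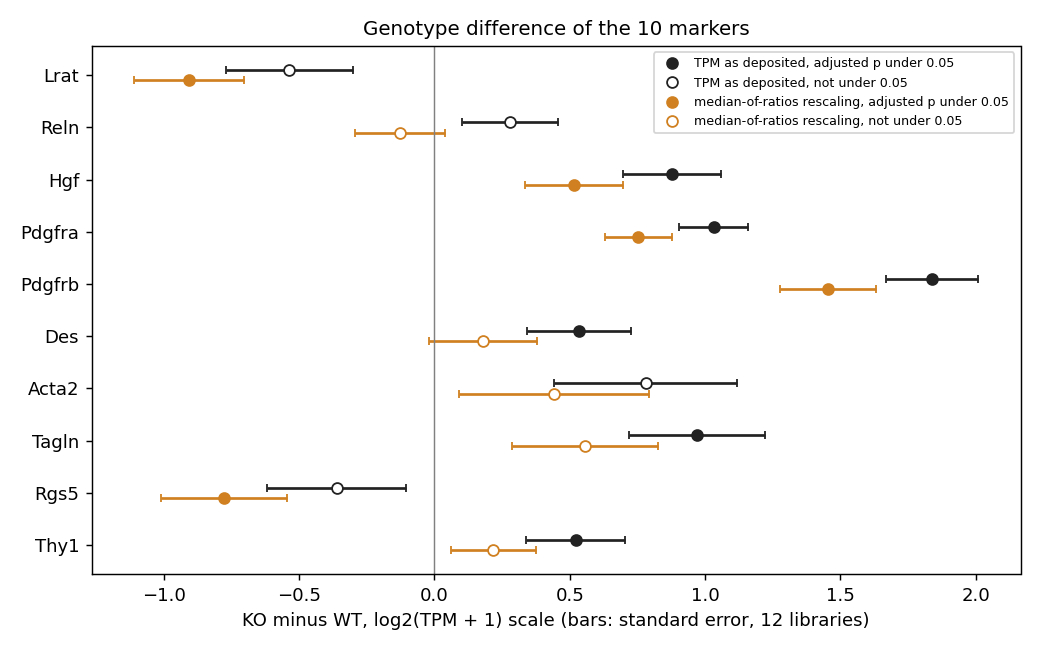
KO minus WT difference of each marker on the log2(TPM + 1) scale with its standard error over 12 libraries, for TPM as deposited (black) and after median-of-ratios rescaling (orange); filled points have an adjusted p under 0.05. Lrat and Rgs5 become calls of lower level after rescaling, while Des, Tagln and Thy1 lose theirs.

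The proximal promoters of the 4 markers that were called after rescaling and had an entry in the RefSeq promoter table are shown first. After rescaling, Lrat and Rgs5 were lower and Hgf and Pdgfra higher in the KO livers. Each line is the 250 bases before the RefSeq start on GRCm38.p6, 5′ to 3′ on the gene's strand. Capitals mark the TEAD core, printed as GGAATG where it lies on the gene's strand and as CATTCC where it lies on the opposite strand. Lrat lies at chr3:82903975-82904224 on the minus strand, Rgs5 at chr1:169655251-169655500 on the plus strand, Hgf at chr5:16553245-16553494 on the plus strand and Pdgfra at chr5:75152001-75152250 on the plus strand.
Lrat: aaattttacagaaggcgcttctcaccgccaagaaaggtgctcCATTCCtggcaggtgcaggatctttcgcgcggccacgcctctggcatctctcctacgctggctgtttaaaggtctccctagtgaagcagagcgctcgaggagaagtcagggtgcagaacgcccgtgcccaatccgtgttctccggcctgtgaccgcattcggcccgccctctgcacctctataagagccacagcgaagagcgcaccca
Rgs5: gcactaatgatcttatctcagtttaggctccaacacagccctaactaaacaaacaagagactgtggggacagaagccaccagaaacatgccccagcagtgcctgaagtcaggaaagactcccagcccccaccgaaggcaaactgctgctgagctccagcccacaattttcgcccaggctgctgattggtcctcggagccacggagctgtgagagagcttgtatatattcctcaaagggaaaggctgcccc
Hgf: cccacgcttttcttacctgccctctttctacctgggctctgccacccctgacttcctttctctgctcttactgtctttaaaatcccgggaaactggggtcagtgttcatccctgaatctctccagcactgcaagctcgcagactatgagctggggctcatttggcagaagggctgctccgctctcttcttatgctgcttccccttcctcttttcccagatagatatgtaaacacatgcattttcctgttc
Pdgfra: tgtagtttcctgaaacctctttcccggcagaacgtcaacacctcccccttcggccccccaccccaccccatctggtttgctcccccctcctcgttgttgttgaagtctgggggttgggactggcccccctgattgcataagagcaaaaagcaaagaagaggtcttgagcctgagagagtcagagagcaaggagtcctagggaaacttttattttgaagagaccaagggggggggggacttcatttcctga
Of these 4 windows, that of Lrat held the core, beginning 208 bases before the start, with 12.6% of 32851 promoter windows of that length holding it on either strand. Windows of 7 of the 10 markers were matched. The other window with a core was that of Acta2, 146 bases before the RefSeq start but inside the span of the gene in GENCODE, which begins further upstream. It is shown with 12 bases on each side on the minus strand at chr19:34255502-34255531.
Acta2: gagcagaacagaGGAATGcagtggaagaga
The CArG box, the binding motif of serum response factor, was searched on both strands in its strict form. It was found in 0 of the members' windows and in 1.47% of all windows. Near matches were not counted, and the Acta2 window held one. Tagln, Thy1 and Pdgfrb had no matched window and were not searched, so the count does not show that the contractile markers lack such sites. A match is a description of letters and not evidence of binding.

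Among the quiescence markers, the 3 genes went different ways. Lrat (chromosome 3, 82892579 to 82903973, minus strand) encodes lecithin retinol acyltransferase, which esterifies retinol for storage. Its TPM was 4.81, 3.20 and 3.95 in WT males and 7.61, 5.29 and 9.25 in WT females, against 2.82, 1.64 and 5.79 in KO males and 5.33, 3.84 and 2.42 in KO females. The genotypes overlapped, with 3 KO livers inside the WT range and the other 3 below every WT liver. The difference was -0.54 (SE 0.23, adjusted p = 0.067) in the deposited TPM and -0.91 (SE 0.20, adjusted p = 0.0034) after rescaling. Without KO male replicate 3 the deposited-scale difference was -0.73 (adjusted p = 0.0072), and without WT male replicate 2 it was -0.62 (adjusted p = 0.049). The smallest difference from leaving out a library was -0.40 (adjusted p = 0.15), without KO female replicate 3. In the authors' deposited table, Lrat had a log2 fold change of -0.83 with a false discovery rate (FDR) of 0.01.

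Reln (chromosome 5, 21884454 to 22344702, minus strand) encodes reelin, a secreted glycoprotein that stellate cells make in liver. It measured 5.64, 5.12 and 4.76 TPM in WT males, 6.44, 8.45 and 9.94 in WT females, 7.48, 3.72 and 10.1 in KO males and 9.50, 9.46 and 10.7 in KO females. KO females were tightly grouped, while KO males spanned the whole WT range and beyond. The difference was 0.28 (SE 0.18, adjusted p = 0.20) in the deposited TPM and -0.13 (SE 0.17, adjusted p = 0.57) after rescaling, so its sign depended on the scale. Without KO male replicate 2 the deposited-scale value was 0.43 (adjusted p = 0.022), and without KO male replicate 3 it was 0.15 (adjusted p = 0.43). The log2 fold change of Reln in the authors' deposited table was -0.0068 with an FDR of 0.99. The reelin receptor gene Vldlr differed by -0.15 (SE 0.26, adjusted p = 0.65) in the deposited TPM and by -0.40 (adjusted p = 0.25) after rescaling, and the receptor Lrp8 and adaptor Dab1 were under the filter on low values.

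Hgf (chromosome 5, 16553495 to 16620152, plus strand) encodes hepatocyte growth factor, the mesenchymal ligand of the Met receptor on hepatocytes. Its TPM was 2.09, 2.84 and 1.54 in WT males and 2.33, 2.90 and 2.97 in WT females, against 4.45, 2.60 and 7.33 in KO males and 5.27, 7.01 and 6.30 in KO females. Every KO liver but KO male replicate 2 exceeded every WT liver. Hgf rose by 0.88 (SE 0.18, adjusted p = 0.0012) in the deposited TPM and by 0.52 (SE 0.18, adjusted p = 0.038) after rescaling. This quiescence marker was called in the direction of the PDGF receptors on both scales, and in the direction opposite to Lrat after rescaling. In the authors' deposited table its log2 fold change was 0.60 with an FDR of 0.14.

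Around Hgf, the genes of its activating proteases, their inhibitors and its receptor were examined as a list of 8, of which 7 were tested and 4 were higher and 0 lower in the deposited TPM (4 higher and 2 lower after rescaling). The deposited-scale share is near the background of 50.1% higher, and after rescaling the background was 20.6% higher and 18.8% lower. St14, encoding matriptase, a membrane protease, rose by 2.39 (SE 0.23), from a WT range of 0.170 to 0.667 TPM to a KO range of 2.50 to 8.64 TPM. Plat, encoding tissue plasminogen activator, rose by 2.26 (SE 0.15), and Spint2, an inhibitor of such proteases, by 1.00 (SE 0.10; 0.54 after rescaling, adjusted p = 0.0012). The deposited-scale adjusted p of these 3 genes lay at or under 2.8e-06. The receptor gene Met differed by -0.01 (SE 0.14, adjusted p = 0.97) in the deposited TPM and by -0.45 (adjusted p = 0.013) after rescaling.

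The receptors for PDGF gave the clearest separation of all 10 markers. Pdgfrb (chromosome 18, 61045150 to 61085061, plus strand) encodes PDGF receptor beta, which carries the mitogenic response of activated stellate cells. It measured 1.88, 2.75 and 1.90 TPM in WT males and 2.66, 2.32 and 4.29 in WT females, against 11.4, 6.24 and 10.9 in KO males and 16.9, 12.4 and 15.6 in KO females. All 6 KO livers lay above all 6 WT livers, with means of 12.2 ± 3.78 (SD, n = 6) and 2.63 ± 0.890 TPM (SD, n = 6). The rise was 1.84 (SE 0.17, adjusted p = 1.5e-06) in the deposited TPM and 1.45 (SE 0.18, adjusted p = 3.2e-05) after rescaling. The same separation of libraries, KO above WT, was seen in 28.7% of tested genes, and the reverse in 1.88%.

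Pdgfra (chromosome 5, 75152292 to 75198215, plus strand) encodes PDGF receptor alpha, found on stellate cells and fibroblasts. Its TPM was 0.827, 0.620 and 0.726 in WT males, 0.839, 0.983 and 1.38 in WT females, 3.14, 1.63 and 2.57 in KO males and 3.59, 2.94 and 3.62 in KO females. The genotypes again did not overlap, and the lowest KO liver was KO male replicate 2. Pdgfra rose by 1.03 (SE 0.13, adjusted p = 1.9e-05) in the deposited TPM and by 0.75 (SE 0.12, adjusted p = 0.00038) after rescaling. For both receptors the call was kept in every alternative that was run, including each left-out library. The authors' deposited table gave log2 fold changes of 1.86 for Pdgfrb and 1.39 for Pdgfra, both with an FDR printed as 0.

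Of the 4 PDGF ligand genes, 3 were higher on both scales, beside 50.1% of all tested genes in the deposited TPM and 20.6% after rescaling, with a median difference of 1.47 in the deposited TPM. Pdgfa rose by 1.88 (SE 0.18), from a WT range of 3.05 to 6.32 TPM to a KO range of 12.2 to 22.5 TPM. Pdgfc rose by 1.78 (SE 0.19) and Pdgfb, the main stellate cell mitogen, by 1.15 (SE 0.17). The largest adjusted p among them was 7.2e-05. Pdgfd, a ligand of the beta receptor, differed by 0.06 (SE 0.15, adjusted p = 0.75) in the deposited TPM and by -0.094 after rescaling.

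The genes whose 12-library profile lay nearest to that of Pdgfrb were Vim, Loxl2 and Bicc1, with root mean square differences of 0.13, 0.15 and 0.19 on the log2(TPM + 1) scale after each gene was centred on its WT mean. Vim encodes the mesenchymal intermediate filament vimentin, and Loxl2 a collagen cross-linking enzyme. Vim went from 11.6 TPM to 47.7 TPM in the mean, and Loxl2 from 1.03 to 6.80 TPM. Nearest to Hgf were Slc52a3, Eps8 and Dock10, at 0.18, 0.19 and 0.19. Proximity in this measure describes these libraries only.

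The contractile markers were the most variable among the KO livers. Acta2 (chromosome 19, 34241090 to 34255590, minus strand) encodes smooth muscle alpha-actin, the usual stain for myofibroblasts. It measured 3.70, 2.56 and 1.74 TPM in WT males, 1.37, 0.988 and 1.36 in WT females, 4.55, 2.10 and 2.72 in KO males and 5.39, 1.65 and 11.1 in KO females. The genotypes overlapped: 3 KO livers lay within the WT range, and the highest value was KO female replicate 3. Acta2 differed by 0.78 (SE 0.34, adjusted p = 0.065) in the deposited TPM and by 0.44 (SE 0.35, adjusted p = 0.34) after rescaling, so its genotype difference did not pass the test on either scale. The authors' deposited table gave it a log2 fold change of 0.54 with an FDR of 0.42. It passed on the deposited scale without WT male replicate 1 (0.94, adjusted p = 0.036), KO male replicate 2 (0.93, adjusted p = 0.037) or KO female replicate 2 (0.97, adjusted p = 0.024).

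Tagln (chromosome 9, 45929619 to 45936058, minus strand) encodes transgelin, an actin-binding protein of contractile cells. Its TPM was 7.97, 5.87 and 4.62 in WT males, 6.21, 5.29 and 5.73 in WT females, 14.3, 6.79 and 7.77 in KO males and 19.3, 9.77 and 25.2 in KO females. KO male replicates 2 and 3 lay within the WT range and the other 4 above it. Tagln rose by 0.97 (SE 0.25, adjusted p = 0.0052) in the deposited TPM, and the difference was 0.56 (SE 0.27, adjusted p = 0.12) after rescaling. The authors' deposited table gave it a log2 fold change of 0.72 with an FDR of 0.09. Its exons overlap those of the antisense gene Gm48529 over 1241 bases and of Pcsk7 over 108 bases. Use of strand in the counting is not given in the sources used here, so reads of Tagln and of these genes may be mixed.

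Des (chromosome 1, 75360329 to 75368579, plus strand) encodes desmin, an intermediate filament of stellate and muscle cells. It measured 2.35, 2.58 and 1.82 TPM in WT males, 3.78, 2.68 and 3.00 in WT females, 4.07, 1.49 and 3.52 in KO males and 6.06, 4.93 and 8.17 in KO females. The KO females lay above every WT liver, whereas KO male replicate 2 was the lowest of all 12 livers. The rise of 0.53 (SE 0.19, adjusted p = 0.031) in the deposited TPM came near the threshold, and leaving out any of 7 libraries in turn took it above 0.05. So did fitting without the 20 most abundant genes (adjusted p = 0.067), with no filter on low values (0.053) or with no covariate for sex (0.092). After rescaling the difference was 0.18 (SE 0.20, adjusted p = 0.50). In the authors' deposited table the log2 fold change of Des was 0.41 with an FDR of 0.41.

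Smooth muscle genes other than the markers were read beside these values. Of a list of 11 contractile genes, 6 were tested and 2 were higher in the deposited TPM, Tpm1 (tropomyosin, 2.08, SE 0.11) and Smtn (smoothelin, 1.07, SE 0.13). The 2 of 6 are below the background of 50.1% higher. After rescaling 2 were higher and 1 lower, beside 20.6% and 18.8%, with Smtn at 0.70 (adjusted p = 0.00082). The list's median was 0.09 in the deposited TPM, beside 0.35 over all tested genes, and -0.28 after rescaling, beside -0.04, so its sign depended on the scale. Myh11, smooth muscle myosin and the list's most specific gene, differed by -0.25 (SE 0.24, adjusted p = 0.40) in the deposited TPM and by -0.42 (adjusted p = 0.19) after rescaling. The summed TPM of Myh11, Cnn1 and Actg2, a set chosen after its values were seen, lay between 0.357 and 2.11 in WT and between 0.224 and 1.13 in 5 KO livers, with 6.08 in KO female replicate 3. That library was also the highest for Acta2 and Tagln. Without it Acta2 differed by 0.48 (adjusted p = 0.13) and Tagln by 0.80 (adjusted p = 0.011) in the deposited TPM. The part of vascular or other smooth muscle in these values was not tested.

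**Figure D3:**
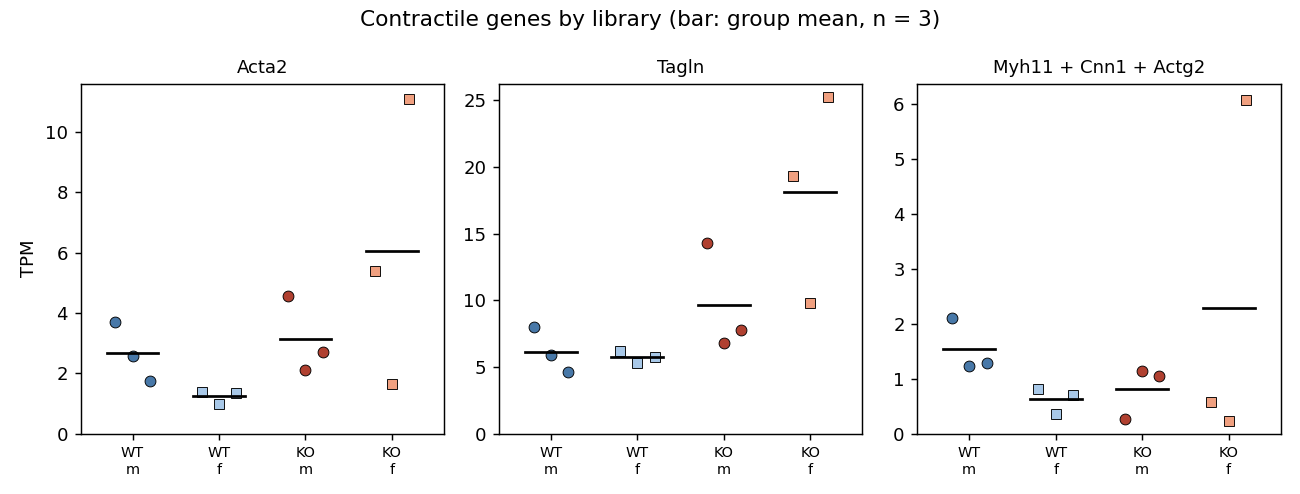
TPM of Acta2, Tagln and the sum of Myh11, Cnn1 and Actg2 in each library on linear axes (bars are group means of 3 mice). KO female replicate 3, the right-hand square of the KO female group, is highest in all 3 panels, and the other 5 KO livers have a smooth muscle sum of at most 1.13 TPM.

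The mural and fibroblast surface markers also split. Rgs5 (chromosome 1, 169655501 to 169695813, plus strand) encodes a regulator of G-protein signalling typical of pericytes and resting stellate cells. Its TPM was 7.50, 10.2 and 6.36 in WT males, 16.3, 8.69 and 12.2 in WT females, 5.10, 5.16 and 14.0 in KO males and 11.1, 4.88 and 7.60 in KO females. The genotypes overlapped, with 3 KO livers below every WT liver and KO male replicate 3 near the top of the WT range. The difference was -0.36 (SE 0.26, adjusted p = 0.25) in the deposited TPM and -0.78 (SE 0.23, adjusted p = 0.017) after rescaling. Without KO male replicate 3 the deposited-scale value of Rgs5 was -0.58 (adjusted p = 0.030), and without KO female replicate 2 it was -0.22 (adjusted p = 0.47). In the authors' deposited table Rgs5 had a log2 fold change of -0.73 with an FDR of 0.03.

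A list of 9 pericyte and mural genes had 7 tested members, of which 2 were higher in the deposited TPM and 0 after rescaling, with 0 lower on both (at an unadjusted p under 0.05, 1 was higher after rescaling). In limma-voom 0 were called. The 2 of 7 are below the background of 50.1% higher. They were Kcnj8 (0.67, SE 0.16), a potassium channel subunit, and Mcam (0.56, SE 0.17), an adhesion molecule also found on endothelium. After rescaling they stood at 0.35 (adjusted p = 0.077) and 0.23 (adjusted p = 0.28).

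Thy1 (chromosome 9, 44043384 to 44048579, plus strand) encodes the surface protein CD90. It measured 1.06, 0.909 and 1.21 TPM in WT males, 2.39, 3.25 and 1.39 in WT females, 1.34, 2.74 and 3.04 in KO males and 4.53, 2.75 and 2.57 in KO females. WT females reached the level of the KO livers. Thy1 rose by 0.52 (SE 0.18, adjusted p = 0.027) in the deposited TPM, and differed by 0.22 (SE 0.16, adjusted p = 0.30) after rescaling. Leaving out any of 6 libraries in turn took the deposited-scale call above 0.05, as did fitting with no covariate for sex (adjusted p = 0.067). In the authors' deposited table the log2 fold change of Thy1 was 0.73 with an FDR of 0.11.

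Because Thy1 is shared with other cells, 2 lists were set beside it. Of 10 T and NK cell genes, 5 were tested and 0 were called in limma on either scale or in limma-voom, with 0 at an unadjusted p under 0.05. Their summed TPM ran from 2.11 to 5.99 in WT and from 2.64 to 7.41 in KO. The receptor constant genes Trac and Trbc2 were listed at 0 in all 12 libraries, which is not read as absence, since whether reads of these genes were counted was not tested. Of 8 portal fibroblast genes, 6 were tested and 6 were higher in the deposited TPM, 5 after rescaling, beside 50.1% and 20.6% of all tested genes, with a median difference of 1.10 on the deposited scale. The best known, Entpd2, an ectonucleotidase, rose by 2.39 (SE 0.16). Dpt rose by 1.77 (SE 0.34) and Cd34 by 1.11 (SE 0.19). The summed portal fibroblast level was 7.42 to 15.4 TPM in WT and 37.8 to 78.0 TPM in KO, and its part in the Thy1, Pdgfra and Pdgfrb values was not tested. Of 5 mesothelial genes, 2 were higher in the deposited TPM, Wt1 (1.25, SE 0.13) and Msln (1.02, SE 0.32), and 1 after rescaling, when Msln stood at 0.83 (adjusted p = 0.063). These counts are near or below the same background.

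The 7 other markers and the 3 quiescence markers were set against each other as a score, to which single genes of both sets ran counter (Hgf higher, Rgs5 lower after rescaling). The mean log2(TPM + 1) of the other markers minus that of the quiescence markers was -0.33 ± 0.05 (SD, n = 3) in WT males, -0.65 ± 0.20 in WT females, -0.02 ± 0.38 in KO males and 0.14 ± 0.46 in KO females. The 6 WT livers ran from -0.84 to -0.28. Among the KO livers, 4 lay between 0.12 and 0.51, above every WT liver, and the other 2, KO male replicate 3 at -0.45 and KO female replicate 2 at -0.37, lay within the WT range. Over genotypes the means were -0.49 ± 0.22 (SD, n = 6) and 0.06 ± 0.39 (SD, n = 6). The quiescence mean itself was 2.45 ± 0.32 in WT and 2.66 ± 0.45 in KO, and the mean of the other markers was 1.96 ± 0.16 and 2.72 ± 0.43. The genotype difference in the score was 0.55 on the deposited scale and 0.58 after rescaling. No test is attached to a score over genes chosen with earlier results known.

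Ratios of 2 markers within a library do not depend on the scale. Of the 45 pairs, 11 had ratios that did not overlap between the genotypes, or 24.4%, beside 20.6% of pairs drawn from all genes above 0 in every library. The share is near this background, so the pairs below describe these libraries and single out no marker. Lrat was the lower member in 4 of the 11, against Reln, Hgf, Pdgfra and Pdgfrb. The Pdgfrb to Lrat ratio ran from 0.349 to 0.861 in WT and from 1.89 to 6.47 in KO. The Hgf to Lrat ratio ran from 0.306 to 0.889 in WT and from 0.988 to 2.61 in KO. The Reln to Lrat ratio ran from 0.846 to 1.60 in WT and from 1.75 to 4.45 in KO.

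Pdgfrb was the higher member in 5 of the 11, against Lrat, Reln, Hgf, Des and Rgs5. Against Hgf its ratio had a geometric mean of 1.06 in WT and 2.25 in KO, and the groups were separated narrowly, with a highest WT ratio of 1.44 and a lowest KO ratio of 1.49. Rgs5 was the lower member in 3, against Hgf, Pdgfra and Pdgfrb. Acta2, Tagln and Thy1 had no pair without overlap.

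**Figure D4:**
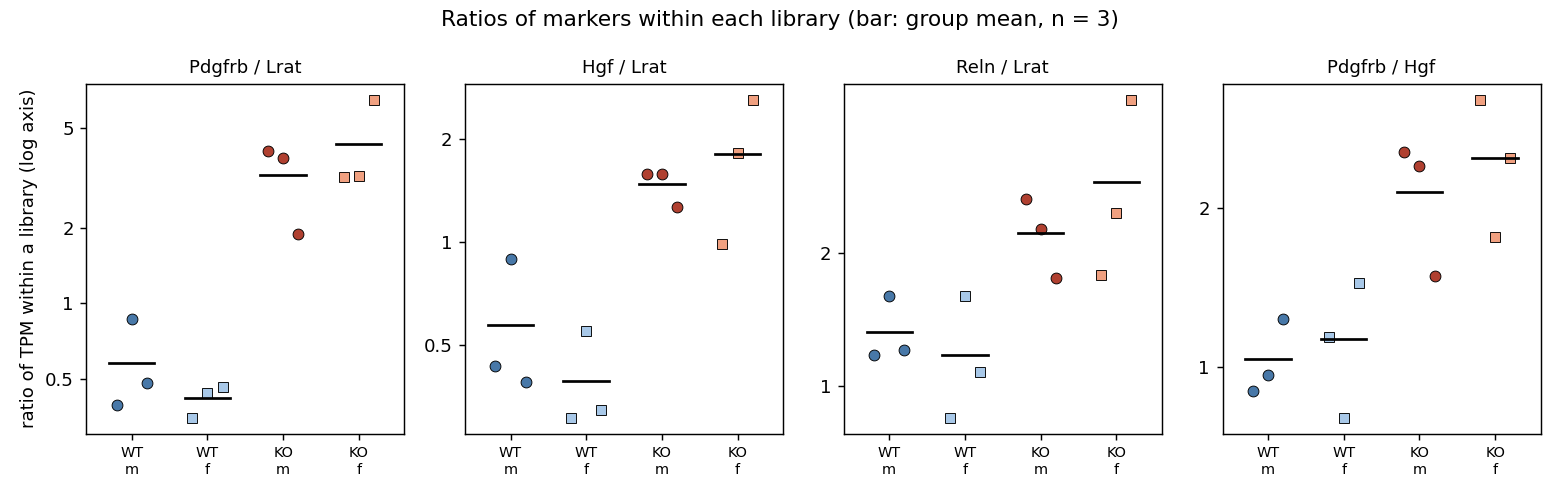
Ratio of the TPM of 2 markers in each library on a log axis, for Pdgfrb to Lrat, Hgf to Lrat, Reln to Lrat and Pdgfrb to Hgf (bars are group means of 3 mice). All KO libraries lie above all WT libraries in each panel, by a wide margin for Pdgfrb to Lrat and a narrow one for Pdgfrb to Hgf.

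The order of the levels changed with these shifts. TPM is scaled by gene length, so levels of different genes can be ranked, though only roughly. The lengths used are not given in the sources used here. The Tagln level may also include reads of the genes that overlap it. Rgs5 was the highest of the 10 in WT males (8.02 ± 1.97 TPM, SD, n = 3) and WT females (12.4 ± 3.79). In the KO groups Tagln ranked first, at 9.61 ± 4.07 TPM in males and 18.1 ± 7.78 in females, and Pdgfrb second, at 9.51 ± 2.84 and 15.0 ± 2.33 TPM. Pdgfrb had ranked seventh in WT males and sixth in WT females. The first and second ranks in each KO group did not differ beyond their spread, nor did Rgs5 and Tagln in WT males or Rgs5 and Reln (8.28 ± 1.76) in WT females.

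Further stellate cell genes, outside the 10, also split. Of a list of 15 identity genes, 13 were tested, with 5 higher and 3 lower in the deposited TPM and 3 higher and 5 lower after rescaling. Over all tested genes the shares were 50.1% higher and 4.82% lower, and 20.6% and 18.8% after rescaling, so fewer were higher than the background in the deposited TPM and the share higher after rescaling was near it. Their median difference was 0.13 in the deposited TPM and -0.12 after rescaling, beside 0.35 and -0.04 over all tested genes. Cygb, the stellate cell globin cytoglobin, rose by 1.83 (SE 0.16), from a WT range of 2.94 to 10.2 TPM to a KO range of 14.9 to 40.7 TPM, and Adamtsl2, a secreted matrix glycoprotein, by 1.67 (SE 0.22). Vipr1, a receptor for vasoactive intestinal peptide, fell by 1.33 (SE 0.15), and its KO range of 1.46 to 5.36 TPM lay below its WT range of 6.37 to 13.3 TPM. Colec10, a secreted collectin, fell by 1.30 (SE 0.28), and Ecm1, an extracellular matrix protein, fell by 0.92 (SE 0.19). The largest adjusted p of these 5 in limma was 0.0018. Hhip, a hedgehog-binding protein that was under the filter and was named after its values were seen, lay between 0.253 and 0.884 TPM in WT and was listed at 0 in 5 KO livers and at 0.0103 in the other.

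**Figure D5:**
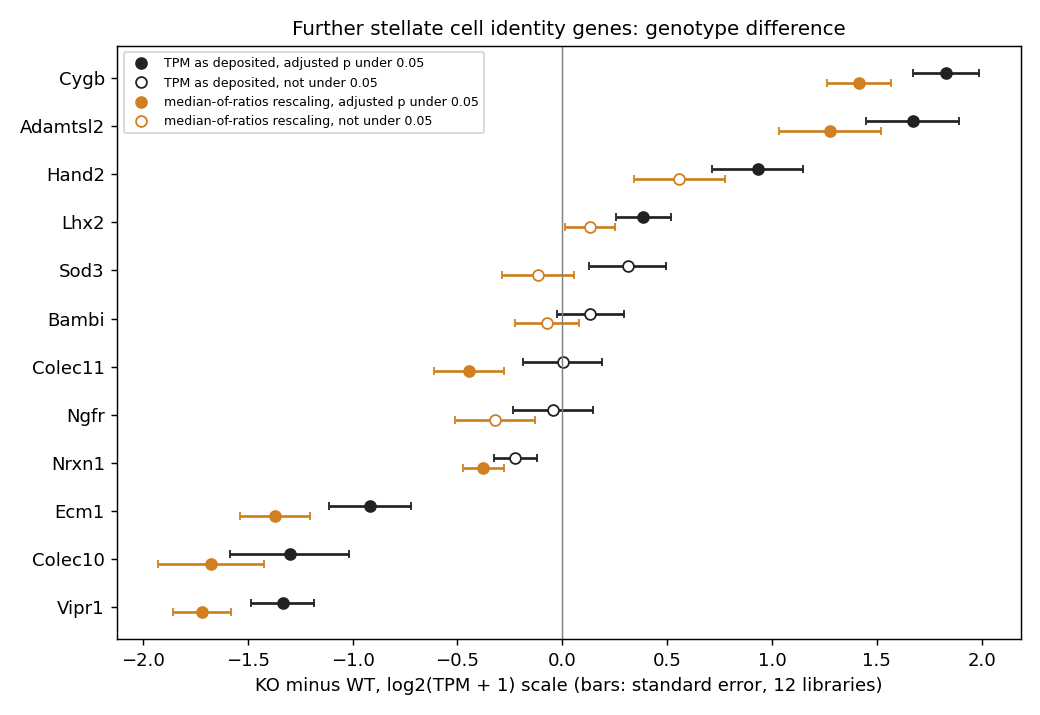
KO minus WT difference of 12 of the 13 tested identity genes on the log2(TPM + 1) scale with its standard error over 12 libraries, for TPM as deposited (black) and after median-of-ratios rescaling (orange); filled points have an adjusted p under 0.05. Cygb and Adamtsl2 are higher and Ecm1, Colec10 and Vipr1 lower on both scales.

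The matrix genes that activated stellate cells and fibroblasts make rose more uniformly. Of 14 fibrogenic genes, 13 were tested, with 12 higher and 0 lower in the deposited TPM (0 lower also at an unadjusted p under 0.05 and in limma-voom) and 11 higher after rescaling, beside 50.1% and 20.6% of all tested genes higher. Their median difference was 1.92 in the deposited TPM and 1.56 after rescaling, beside 0.35 and -0.04 over all tested genes. Col1a1, the collagen I alpha-1 chain, rose by 4.01 (SE 0.21), from a WT range of 1.82 to 4.29 TPM to a KO range of 33.5 to 85.0 TPM. Timp1, an inhibitor of matrix proteases, rose by 3.20 (SE 0.20) and Col1a2 by 3.16 (SE 0.18). All 3 exceeded the change of any of the 10 markers, while Acta2 in the same libraries did not pass the test. For the serum response factor axis, which drives Acta2 and Tagln in muscle, a list of 5 gene names had 3 that were found and tested. These 3 were higher in the deposited TPM, beside 50.1% of all tested genes. Mrtfb rose by 1.34 (SE 0.19), Mrtfa by 1.25 (SE 0.21) and Srf by 0.50 (SE 0.14). After rescaling 2 were higher, beside 20.6%, and Srf stood at 0.075 (adjusted p = 0.73).

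Retinoid handling beyond Lrat gave 3 higher genes of 9 tested in the deposited TPM, Stra6l (0.86, SE 0.17), a retinol transporter, Dgat1 (0.50, SE 0.12), which can also esterify retinol, and Rdh10 (0.44, SE 0.13), a retinol dehydrogenase. This is below the background of 50.1%. After rescaling 0 were higher, also at an unadjusted p under 0.05 and in limma-voom, and 2 were lower, near the background of 18.8%, so no direction of this list held on both scales. Stra6l then stood at 0.40 (adjusted p = 0.12), Dgat1 at 0.055 (adjusted p = 0.70) and Rdh10 at 0.0060 (adjusted p = 0.97). Most of these genes are expressed by hepatocytes as well.

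Both PDGF receptors were called higher within each sex. In males, 4 markers were higher in KO in the deposited TPM, Hgf (0.81), Pdgfra (0.98), Pdgfrb (1.70) and Thy1 (0.67), and 0 were lower, also at an unadjusted p under 0.05, beside 43.3% and 2.81% of tested genes. After rescaling the male calls were Pdgfra and Pdgfrb, beside 13.7% of genes. Male Hgf was then at 0.38 (adjusted p = 0.33) and male Thy1 at 0.32 (adjusted p = 0.34). Lrat in males was at -0.73 (adjusted p = 0.089), and at -0.95 (adjusted p = 0.092) in limma-voom, with an unadjusted p under 0.05 in both. In females, 6 were higher, Hgf (0.94), Des (0.82), Pdgfra (1.09), Pdgfrb (1.98), Acta2 (1.40) and Tagln (1.41), and 0 lower, beside 29.1% and 4.68% (at an unadjusted p under 0.05, 7 passed, with Lrat lower in addition, beside 43.3% of genes in either direction). In limma-voom Lrat and Rgs5 were lower, beside 11% of genes. After rescaling the female calls were Pdgfra, Pdgfrb and Tagln higher, beside 15% of genes, and Lrat lower (-1.09, adjusted p = 0.015), beside 11%. Female Hgf then stood at 0.66 (adjusted p = 0.081), Des at 0.53 (adjusted p = 0.16) and Acta2 at 1.14 (adjusted p = 0.066). The female Acta2 call was lost without KO female replicate 3 (0.88, adjusted p = 0.094), and also without KO female replicate 1 or either of WT female replicates 1 and 2. The male Hgf call was lost without WT male replicate 1 or 3 or KO male replicate 1 or 3 (adjusted p from 0.051 to 0.097), and the female Hgf call without WT female replicate 1 (adjusted p = 0.056). The male Thy1 call, at an adjusted p of 0.04999, was lost in 8 of the 12 fits that left out a library, and the female Des call in 4 of 12.

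A call in one sex and not in the other was not shown to be a difference between the sexes. The male effect minus the female effect passed the limma test for 0 markers in the deposited TPM, with 0 also at an unadjusted p under 0.05 and 0 calls in limma-voom, beside 0.912% of tested genes called and 8.85% under 0.05 unadjusted. The widest were Acta2 (-1.24, SE 0.60, adjusted p = 0.59) and Tagln (-0.88, SE 0.45, adjusted p = 0.61). Leaving out 1 library at a time gave Acta2 from -1.82 (without KO female replicate 2) to -0.72 (without KO female replicate 3) and Tagln from -1.25 to -0.60 for the same 2 libraries, with 0 calls. After rescaling the full-data values were -1.40 (SE 0.60, adjusted p = 0.60) and -1.06 (SE 0.47, adjusted p = 0.62), and these 2 were then under 0.05 by the unadjusted limma p, beside 7.62% of genes. Males and females of the same genotype also differed in 0 markers, in WT (5.74% of genes called) and in KO (0.0814%), with 0 calls in limma-voom for either. At an unadjusted p under 0.05 there were 3 markers in WT, near the background of 25.6% of genes, and 3 in KO, beside 5.33%. In limma-voom 5 were under it in KO, beside 748 of 12272 genes. All 10 markers were lower in KO males than in KO females, by 0.043 to 0.92. The median, male minus female, was -0.45, beside -0.0011 over all tested genes. Without KO male replicate 2 the median was -0.28, with values up to 0.17, and 1 marker was under 0.05 unadjusted, beside 518 of 12279 genes.

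Some libraries stood out across the markers. KO male replicate 2 was the lowest of the 6 KO livers for 7 of the 10 markers and for 16.3% of all tested genes. KO female replicate 3 was the highest for 5 (Reln, Des, Pdgfra, Acta2, Tagln) and for 9.14% of genes. WT female replicate 3 was the highest WT liver for 5 (Lrat, Reln, Hgf, Pdgfra, Pdgfrb) and for 22.0% of genes. WT male replicate 3 was the lowest WT liver for 5 (Reln, Hgf, Des, Tagln, Rgs5) and for 13.9% of genes. Over all tested genes other libraries were more extreme. WT male replicate 2 was the lowest WT liver for 42.7% of genes and 3 markers. KO male replicate 3 was the highest KO liver for 39.7% of genes and 3 markers (Lrat, Hgf, Rgs5). Their median-of-ratios factors were the lowest and highest (0.724 and 1.34). Without KO male replicate 2 the deposited-scale calls were 7 higher and 0 lower, with Reln and Acta2 added and Thy1 lost, beside 47.2% and 5% of genes.

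Genes of other liver cell types were read beside the markers, against the background of 50.1% of tested genes higher and 4.82% lower in the deposited TPM and 20.6% and 18.8% after rescaling. The summed TPM of 5 Kupffer cell genes was 57.7 to 199 in WT and 258 to 538 in KO, with 5 of 5 higher (4 after rescaling), Cd5l by 2.33, Adgre1 by 2.01 and Vsig4 by 1.95. The leukocyte genes Cd52, Coro1a and Ptprc rose by 2.03, 1.54 and 1.44. Of 4 tested bile duct genes, 2 were higher, a share near the background, Spp1 by 3.76 and Sox9 by 1.57, and 1 was lower, Epcam, which fell by 0.35. Of 6 sinusoidal endothelial genes, 1 was higher (Stab1, 0.60) and 1 lower (Kdr, -0.62), against 0 and 2 after rescaling, so fewer were higher than the background share. Of 5 hepatocyte genes 2 were lower (3 after rescaling), Serpina1c, which fell by 1.74, and Ttr, which fell by 1.10. These are deposited-scale values, and of the genes named only Stab1 was no longer called after rescaling (0.18, adjusted p = 0.35), where Kdr stood at -1.02 and Epcam at -0.53. The Kdr call was lost in 10 of the 12 fits that left out a library (without KO male replicate 2, -0.45, adjusted p = 0.0999) and the Epcam call in 8 of 12. The part of these cell types in the marker values was not tested.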

How the data were processed

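The deposited table gave 1 TPM column a mouse, each summing to 1000000, and, per the file headers, a comparison of genotypes made by the authors: a signed fold change (a score), its log2 value and a p-value adjusted as an FDR. The submitters' processing notes name GRCm38 and edgeR without a role. The aligner, counter and use of strand are not given in the sources used here. Extraction used Trizol and silica columns with DNase, and a sequencing company made the libraries, per the labels' protocols. Groups came from the sample titles. Replicate numbers follow the deposition order and pair no mice. Each library is 1 mouse.

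The 12278 genes averaging 0.5 TPM or more were fitted as log2(TPM + 1) with limma 3.58.1 (R 4.3.3, eBayes with trend) over all 12 libraries, with sex as a covariate for genotype and 4 group means for the other contrasts. P-values are two-sided and adjusted by Benjamini-Hochberg over all tested genes, with a threshold of 0.05. The fit was tested on simulated data. TPM times gene length fell on whole multiples of 1 read (within 0.05) for 99.9% of the genes examined. The length was the annotation's for 4173 of these genes and otherwise fitted to give whole reads (10063 genes; 6 of the 10 markers), so that share is in part fixed by the fit and depth is an estimate. At the annotation's length, with nothing fitted, between 47.5% and 55.5% of values of up to 20 reads were whole within 0.02. Limma-voom on these reads was added after seeing the data. The 10 markers had between 23 and 1637 recovered reads a library. No 2 libraries of a group agreed within sampling noise.

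Alternatives were median-of-ratios rescaling, a pseudocount of 0.1, other filters, no 20 most abundant genes, no trend, no covariate, and each library left out. Another was a covariate for the 2 mice with low animal numbers, WT female replicate 3 and KO female replicate 1. Positions are from GENCODE mouse release 21 (GRCm38), promoters from RefSeq (GRCm38.p6). Named genes were the 10 markers, Yap1, ligands and receptors of the markers, up to 3 called genes with the largest difference from each other list, and the 3 nearest profiles to Hgf and Pdgfrb; exceptions are marked in the text, and 1 gene the rule names is not reported here. The members, lists and this rule were chosen with earlier results of these data known.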

Additional observations from a re-analysis of the deposited data

Results flagged for a closer look

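Pdgfrb in WT female replicate 3 stood at 4.29 TPM, apart from the other 5 WT livers, which lay between 1.88 and 2.75 TPM. It was the only such library in 20 groups of 6 searched (10 markers in each genotype). A search of this size may give such a library by chance, at a rate that was not estimated from these data. The groups share the same livers, so they are not independent. Without this library the Pdgfrb difference between genotypes was 1.91 (adjusted p = 3.9e-06, limma with Benjamini-Hochberg adjustment). The same liver was the highest WT liver for Lrat, Reln, Hgf and Pdgfra. This mouse and KO female replicate 1 were the 2 with low animal numbers. KO female replicate 1 was the highest KO liver for Pdgfrb and Thy1. With a covariate for these 2 mice, 6 markers were called higher and 0 lower for genotype, beside 6065 and 583 of 12278 genes. The part of the animal series in the level of this library was not tested.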

How the results depend on the processing

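Pdgfrb and Pdgfra kept their direction and call for genotype and within each sex under every alternative run, and Hgf did so for genotype. Median-of-ratios rescaling and limma-voom each gave 3 markers higher and 2 lower for genotype. Over all genes they gave 2513 and 2508 higher and 2296 and 2337 lower. Both gave 2 higher in males and 3 in females, with 1 and 2 lower in females. Over all genes, rescaling gave 13.7% higher in males, and 15% higher and 11% lower in females. Limma-voom gave 1628 of 12272 genes higher in males, and 1865 higher and 1356 lower in females. Under these settings in turn, Reln changed sign for genotype (-0.13 and -0.15), in males (-0.19 and -0.23) and in females (-0.068 and -0.074), as did Pdgfd (-0.094 and -0.33), Des in males (-0.16 and -0.25) and Acta2 in males (-0.26 and -0.34); none of these reversed values was a call. With a pseudocount of 0.1, Vldlr stood at 0.020. Leaving out 1 library at a time gave 0 to 2 markers lower for genotype, 2 to 4 higher in males and 0 to 1 lower in females. Of the 12187 to 12327 genes tested in these fits, 503 to 719 were lower for genotype. In males 4106 to 5278 were higher, and in females 404 to 634 were lower. Leaving out a library also moved single genes. It moved Met between -0.11 and 0.053, Pdgfd between -0.039 and 0.15, Vldlr between -0.34 and 0.050 and, in males, Acta2 between -0.077 and 0.36, Lrat between -0.64 and 0.044 and Rgs5 between -0.54 and 0.11. Beyond the shift of scale itself, the cause of these changes was not tested. The KO minus WT difference in the other-minus-quiescence score was 0.55, with a range of 0.46 to 0.73 over its alternatives. No paired analysis was possible because the replicate numbers follow the order of deposition and pair no mice. Precision is limited by 3 mice a group and by as few as 23 recovered reads for a marker in a library.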
